A study of Mus musculus with 17 samples.

Results

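The genes described here are 10 members of the immediate early response: the transcription factor genes Egr1, Egr2 and Egr3, the genes of their corepressors Nab1 and Nab2, the genes Ier2, Ier3 and Ier5, and the transcription factor genes Srf and Myc. They were taken by symbol from a table of counts per gene, in which 10 of 25198 rows carried these names. A total of 21622 rows held at least 1 count, and 9603 rows, 9 of the members among them, had enough counts to be tested. Srf, at 1 to 18 counts per library, was the member not tested. The libraries came from antral follicles of CD1 mice, an outbred strain, isolated at an age of 16 days and grown for 8 days in eIVFG, an encapsulated culture of whole follicles. Each library pooled 3 follicles, so a library does not separate granulosa cells, the oocyte and any theca cells. The 11 Control libraries (6 of batch 1 and 5 of batch 2, where batch is the word of the labels) were compared with 6 Tyrphostin libraries (3 per batch). Tyrphostin stands for 10 µM AG1478, a small-molecule inhibitor of the epidermal growth factor receptor (EGFR) kinase, dissolved in DMSO. It was given with hCG (human chorionic gonadotropin, which acts on the luteinizing hormone receptor) over 4 h. One treatment text is shared by all samples, and it does not say whether hCG and DMSO were given to Control follicles. The libraries cannot show by themselves what hCG does, since none is labelled as lacking it. Library names divide the Control libraries further into 5 sets. The labels do not tie libraries to separate animals or cultures, and the p-values below therefore measure only the spread between these libraries.

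Immediate early genes are transcribed within minutes of a signal, without new protein synthesis. In many cells the signal reaches them through the kinase ERK, which phosphorylates ternary complex factors bound, together with the serum response factor SRF, at promoter sequences called CArG boxes. The EGR proteins are zinc finger factors made in this first wave, and their corepressors NAB1 and NAB2 bind them and limit their activity. In the ovulating follicle luteinizing hormone acts on mural granulosa cells, where EGF-like ligands released by these cells activate EGFR and ERK.

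Promoter sequence was read for the 6 members with an entry (10 windows of 300 bases, 250 before and 50 after an annotated start, from RefSeq on GRCm38.p6): Egr2, Nab1, Nab2, Ier3, Ier5 and Srf. Each window was searched on both strands for the CArG box, for the EGR site GCGNGGGCG, for the cAMP response element TGACGTCA and the TGACG that it contains, for the ETS core CCGGAA that ternary complex factors recognise, and for the AP-1 site TGANTCA. The stretches below show a member with a CArG box that fell in the treated follicles, the gene of the CArG-binding factor itself, and a member that fell although none of these motifs was matched. Capitals mark CArG boxes and EGR sites, and bases inside annotated exons were left out.
Egr2 chr10:67537619-67537868, plus strand: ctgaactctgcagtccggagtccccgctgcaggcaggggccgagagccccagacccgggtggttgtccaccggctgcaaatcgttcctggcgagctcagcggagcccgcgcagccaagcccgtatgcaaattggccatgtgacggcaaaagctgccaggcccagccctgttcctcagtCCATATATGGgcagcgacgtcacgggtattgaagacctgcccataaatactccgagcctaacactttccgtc
Srf chr17:46556176-46556412, minus strand: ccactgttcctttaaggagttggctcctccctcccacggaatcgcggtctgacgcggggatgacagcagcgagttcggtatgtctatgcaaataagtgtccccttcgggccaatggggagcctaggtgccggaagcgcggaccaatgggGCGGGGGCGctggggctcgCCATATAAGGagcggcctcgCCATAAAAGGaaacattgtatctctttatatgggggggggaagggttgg
Ier5 chr1:155099637-155099886, minus strand: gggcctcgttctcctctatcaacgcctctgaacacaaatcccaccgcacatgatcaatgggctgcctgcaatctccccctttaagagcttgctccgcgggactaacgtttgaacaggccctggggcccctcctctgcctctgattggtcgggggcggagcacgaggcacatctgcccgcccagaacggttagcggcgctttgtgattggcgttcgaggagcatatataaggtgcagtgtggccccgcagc
The Egr2 stretch held the CArG box CCATATATGG from -72 to -63, counted from the start of its window's transcript. It also held TGACG from -111 to -107 and, on the other strand, from -55 to -51. Another Egr2 window held the CArG box CCTTTTTTGG from -72 to -63. That window had the ETS core, on either strand, from -131 to -126, from -129 to -124 and from -48 to -43. The Srf stretch held 2 CArG boxes, CCATATAAGG from -82 to -73 and CCATAAAAGG from -62 to -53, with 1 EGR site, GCGGGGGCG, from -101 to -93. It also held the ETS core from -122 to -117 and TGACG from -201 to -197. Nab1 had 3 EGR sites, GCGGGGGCG from -38 to -30, GCGTGGGCG from -109 to -101 and, on the other strand, CGCCCACGC from -141 to -133. Its window also held TGACG, on the other strand, from -123 to -119. The windows of Nab2, Ier3 and Ier5 held no match to any of these motifs. Of all 32851 windows of this length, 1.63% held a CArG box, 5.55% an EGR site, 1.79% the cAMP response element, 20.8% TGACG, 14.9% the ETS core and 7.81% the AP-1 site. A match describes these letters only and is no evidence of binding.

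Library totals ran from 1820545 counts in Control 6 to 8291024 in Control 8, and 3 counts in a library corresponded to between 0.336 and 1.64 CPM. CPM is the usual scaling of counts to a common library total, here after TMM scaling, which corrects for differences in library composition. Markers of granulosa cells made up 7.96% to 11.8% of the counts of a library. Those of the oocyte made up 0.00194% to 0.0289%, and the theca and stroma, endothelial and immune lists each stayed under 0.4%. Control 7 stood apart in its share of mitochondrially encoded transcripts, 0.175% against 0.781% to 2.83% in the other 16 libraries, and had the highest share of heat shock transcripts, 0.452%.

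Across both batches 7 of the 9 tested members fell in the Tyrphostin libraries and 0 rose. These were Egr1, Egr2, Egr3, Nab2, Ier2, Ier5 and Myc. Of all genes tested, 6.25% were called lower and 4.35% higher by the same rule. That rule was an adjusted p below 0.05 by the quasi-likelihood test of edgeR with batch as a term, adjusted over all genes by Benjamini-Hochberg. The members were chosen with earlier results of these data known, so the comparison with all genes is a description and no test of the list. All 9 log2 differences were negative with TMM scaling, and that of Nab1 alone turned positive, to 0.08, when libraries were scaled by their totals, which moved the median of all genes by 0.145. The median difference of the tested members was -1.13 on the log2 scale, beside 0.00 over all genes tested. In bulk libraries such as these, fewer cells of a type and less RNA per cell cannot be told apart. The plot of the level of each member by library shows the same 4 groups of libraries as the values that follow.

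**Figure D1:**
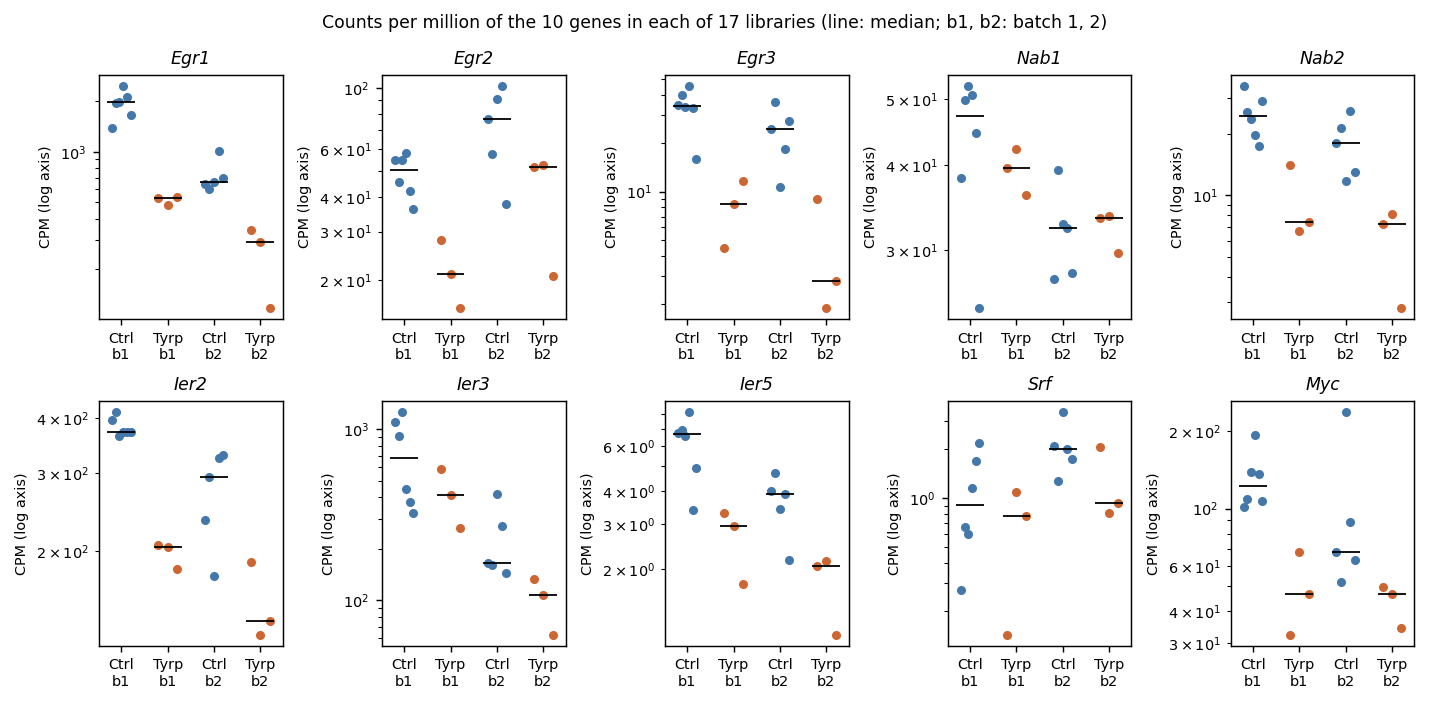
Level of each of the 10 genes in CPM (vertical log axis, its range set for each gene) in every library, with Control libraries in blue and Tyrphostin libraries in orange. Points are libraries and lines are medians, and the groups on the horizontal axis are Control and Tyrphostin of batch 1 (b1) and batch 2 (b2). All 6 Tyrphostin libraries of Egr1 lie between 117 and 539 CPM, below every Control library, while those of Nab1, at 29.7 to 42.3 CPM, lie within the Control range.

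The 3 EGR genes differed in level and in how far they fell. Egr1 (chromosome 18, 34859823 to 34864984, plus strand; positions here and below are those of GENCODE M21 on GRCm38) was the most abundant per kilobase of exon. In Control libraries of batch 1 it ranged from 1376 to 2475 CPM with a median of 1967. The Control libraries of batch 2 held 662, 1011, 696, 641 and 601 CPM. The Tyrphostin libraries held 534, 483 and 539 CPM in batch 1 and 343, 291 and 117 CPM in batch 2. Every Tyrphostin library was below every Control library, and the treated libraries of batch 1 were nearly as high as the untreated ones of batch 2. The fitted difference was -1.71 ± 0.22 (log2, SE; 95% interval -2.16 to -1.26), a level 3.28-fold lower, with an adjusted p of 1.37e-05 (edgeR). No other member had all 6 treated libraries below all 11 Control libraries, a pattern found in 1% of all genes tested.

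Egr3, a paralogue of Egr1 (chromosome 14, 70077203 to 70082614, plus strand), had the largest fitted difference among the members, on a lower level. Its Control libraries ranged from 15.9 to 45.5 CPM around a median of 34.0 in batch 1, and held 10.8, 18.4, 27.4, 24.5 and 36.1 CPM in batch 2. The Tyrphostin libraries held 4.45, 8.39 and 11.7 CPM in batch 1 and 9.05, 1.89 and 2.80 CPM in batch 2. The groups did not overlap within either batch. Over all libraries 5 of the 6 treated ones were below every Control library, the exception being Tyrphostin 3 at 11.7 CPM against 10.8 CPM in Control 7. The difference was -2.16 ± 0.32 (95% interval -2.82 to -1.50), a 4.47-fold lower level, with an adjusted p of 9.31e-05 (edgeR).

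Egr2 (chromosome 10, 67535475 to 67542188, plus strand), best known for its role in myelinating Schwann cells, fell less. Its Control libraries of batch 1 ranged from 36.1 to 57.7 CPM around a median of 50.1. Those of batch 2 held 90.8, 102, 37.8, 77.2 and 57.2 CPM. The Tyrphostin libraries held 27.98, 21.1 and 15.8 CPM in batch 1, all below the Control range. In batch 2 they held 51.6, 52.6 and 20.7 CPM, and the first 2 of these lay above Control 9. The difference was -0.99 ± 0.22 (95% interval -1.45 to -0.53), a 1.99-fold lower level, with an adjusted p of 0.00527 (edgeR). Without the batch term the call was lost, at an adjusted p of 0.0525, and it was lost as well when the Control libraries were summed by set, at 0.0558.

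The corepressor genes gave unlike values. Nab2 (chromosome 10, 127660918 to 127668568, minus strand), which EGR factors are known to activate, ranged from 17.5 to 34.5 CPM around a median of 24.6 in Control libraries of batch 1 and held 11.8, 26.0, 13.0, 18.0 and 21.3 CPM in those of batch 2. In Tyrphostin libraries it stood at 14.1, 6.68 and 7.41 CPM in batch 1 and at 7.27, 8.09 and 2.80 CPM in batch 2. The groups did not overlap within a batch, and 5 of 6 treated libraries were below every Control library. Nab2 fell by 1.49 ± 0.25 on the log2 scale (95% interval -2.0 to -0.98), to a 2.81-fold lower level, with an adjusted p of 0.000275 (edgeR). Its value is uncertain in 1 respect: 1241 of its 2941 exonic bases (42.2%) lie within Stat6, Nemp1 or Gm16229 on the opposite strand. Whether the libraries or the counting kept strand is not given in the sources used here. Without strand, reads from these bases cannot be assigned to Nab2 alone. Stat6 had a difference of -0.49 ± 0.19 (adjusted p = 0.118) and Nemp1 one of -0.18 ± 0.29 (adjusted p = 0.777), both smaller than that of Nab2. The part of the shared bases in the Nab2 difference was not tested.

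Nab1 (chromosome 1, 52457294 to 52500679, minus strand) ranged from 24.6 to 52.3 CPM in Control libraries of batch 1, with a median of 47.2, and held 32.8, 32.3, 27.8, 27.2 and 39.3 CPM in batch 2. Its Tyrphostin libraries stood at 39.6, 42.3 and 36.1 CPM in batch 1 and at 33.5, 33.7 and 29.7 CPM in batch 2. None of the 6 treated libraries was below every Control library. The difference was -0.07 ± 0.15 with an adjusted p of 0.841 (edgeR), and its 95% interval, -0.39 to 0.25, does not reach the difference of any other tested member. The interval for Nab2 and the interval for Nab1 do not overlap, but the difference between the genes was not itself tested. Nab1 is also the long gene among the members, with a span of 43386 bases. The other 9 span under 10000 bases, as do 23.0% of the tested genes with a gene model.

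The 3 IER genes are not one family, and their levels in Control libraries spanned a wider range per kilobase of exon than those of the EGR genes. Ier2 (chromosome 8, 84661331 to 84662852, minus strand), a gene of 1 exon for a nuclear protein, held 363 to 412 CPM with a median of 372 in the 6 Control libraries of batch 1, where its coefficient of variation, 4.94%, was the lowest of the members. In batch 2 the Control libraries held 176, 326, 330, 235 and 294 CPM. The Tyrphostin libraries held 207, 205 and 182 CPM in batch 1 and 190, 130 and 139 CPM in batch 2. The groups did not overlap in batch 1. In batch 2 Control 7, at 176 CPM, lay below Tyrphostin 4. The difference was -0.89 ± 0.16 (95% interval -1.21 to -0.56), a 1.85-fold lower level, with an adjusted p of 0.00056 (edgeR).

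Ier5 (chromosome 1, 155096361 to 155099636, minus strand), also of 1 exon, encodes a protein that acts on heat shock factor HSF1. It was low, at 5 to 35 counts per Control library and 6 to 23 per treated library. Its Control levels ranged from 3.39 to 8.12 CPM around a median of 6.66 in batch 1 and were 3.41, 3.92, 2.17, 4.03 and 4.70 CPM in batch 2. The Tyrphostin libraries held 3.30, 2.95 and 1.76 CPM in batch 1 and 2.06, 2.16 and 1.12 CPM in batch 2. Within each batch the groups did not overlap, though the closest libraries of the groups lay less than 0.1 CPM apart. The difference was -1.13 ± 0.27 (95% interval -1.68 to -0.58), a 2.19-fold lower level, with an adjusted p of 0.00693 (edgeR). The call was lost in both fits with a replicate block, at adjusted p of 0.093 and 0.0647. Among the heat shock genes, a list of 9, 1 of 6 tested fell: Hsph1, at -0.91 ± 0.20 with an adjusted p of 0.00484, while the list's median was 0.00 on the log2 scale.

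Ier3 (chromosome 17, 35821684 to 35822923, plus strand), whose product is an ERK substrate with roles in cell survival, did not pass the test. Its Control libraries of batch 1 ranged from 324 to 1261 CPM around a median of 681. Those of batch 2 held 417, 270, 144, 166 and 160 CPM, and the Tyrphostin libraries stood at 587, 413 and 265 CPM in batch 1 and at 133, 108 and 62.9 CPM in batch 2. The groups overlapped in batch 1 and not in batch 2. The Control libraries of batch 1 differed by set, and averaged 1095 CPM in set 1 and 381 CPM in set 2, where Egr1 averaged 1770 and 2081 CPM. The fitted difference of Ier3 was -0.99 ± 0.32, the same size as that of Egr2, with a 95% interval of -1.66 to -0.32 and an adjusted p of 0.0532 (edgeR). Leaving out single libraries moved that p between 0.0251 and 0.134, and it passed the threshold in 5 of 17 such fits, those without Control 4, 5, 6 or 9 or Tyrphostin 1.

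Srf (chromosome 17, 46548329 to 46556175, minus strand) was at 0.270 to 2.19 CPM in Control libraries of batch 1, with a median of 0.914, and at 3.41, 2.02, 1.74, 2.11 and 1.28 CPM in batch 2. The Tyrphostin libraries held 0.143, 1.09 and 0.780 CPM in batch 1 and 2.06, 0.809 and 0.933 CPM in batch 2. The groups overlapped in both batches, and several values lie at the level of 3 counts. A difference in Srf was not detectable at this depth: without the filter on low counts it came to -0.60 ± 0.51 with an adjusted p of 0.593 (edgeR). SRF is known to be regulated largely through its cofactors, and its transcript level says nothing of its activity. The 6 genes of its cofactors were all tested and 0 were called, with a median difference of -0.16. The largest difference among them was in Elk3, a ternary complex factor, at -1.0 ± 0.37 with an adjusted p of 0.0957. Its relatives Elk1, at 0.07 ± 0.27 (adjusted p = 0.913), and Elk4, at -0.16 ± 0.29 (adjusted p = 0.807), were not called.

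Myc (chromosome 15, 61985391 to 61990374, plus strand), the gene of a growth-promoting transcription factor, ranged from 102 to 193 CPM around a median of 123 in Control libraries of batch 1. The Control libraries of batch 2 held 238, 88.7, 63.4, 67.9 and 52.1 CPM. Its Tyrphostin libraries stood at 32.4, 68.1 and 46.4 CPM in batch 1 and at 49.8, 46.6 and 34.5 CPM in batch 2. The groups did not overlap within either batch, and 5 of 6 treated libraries were below every Control library. Myc fell by 1.32 ± 0.28 on the log2 scale (95% interval -1.91 to -0.74), a 2.50-fold lower level, with an adjusted p of 0.00323 (edgeR). The highest value, 238 CPM, belongs to Control 7, the library with the low mitochondrial and high heat shock share. Without Control 7 the difference was -1.05 with an adjusted p of 0.00116, and Egr1 stood at -1.74 with an adjusted p of 7.22e-06.

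Within batch 1 alone 6 of the 9 tested members fell: Egr1, Egr2, Egr3, Nab2, Ier2 and Myc. There 3.79% of all genes tested were called lower and 2.94% higher. Their differences ran from -0.94 ± 0.21 in Ier2 to -2.06 ± 0.34 in Egr3, and the median over the tested members was -1.18. Ier5 had nearly the same difference as over both batches, -1.18 ± 0.38, with an adjusted p of 0.0738 (edgeR). In batch 1, 7 members had every treated library below every Control library, which was so for 6.46% of all genes tested.

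Within batch 2, with 5 Control and 3 Tyrphostin libraries, 0 of the 9 tested members were called. Only 0.427% of all genes were called lower there and 0.193% higher, while 1047 genes had an unadjusted p under 0.05. The members' differences were of similar size, with a median of -1.19. Egr1 differed by -1.53 ± 0.36 (adjusted p = 0.0894), Egr3 by -2.28 ± 0.53 (adjusted p = 0.0832) and Nab2 by -1.60 ± 0.40 (adjusted p = 0.102, edgeR). In this batch 6 members had every treated library below every Control library: Egr1, Egr3, Nab2, Ier3, Ier5 and Myc. The same held for 4.89% of all genes tested. The count of calls in batch 2 was 4 when Control 7 was left out, 1 without Tyrphostin 4 and 3 with DESeq2.

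**Figure D2:**
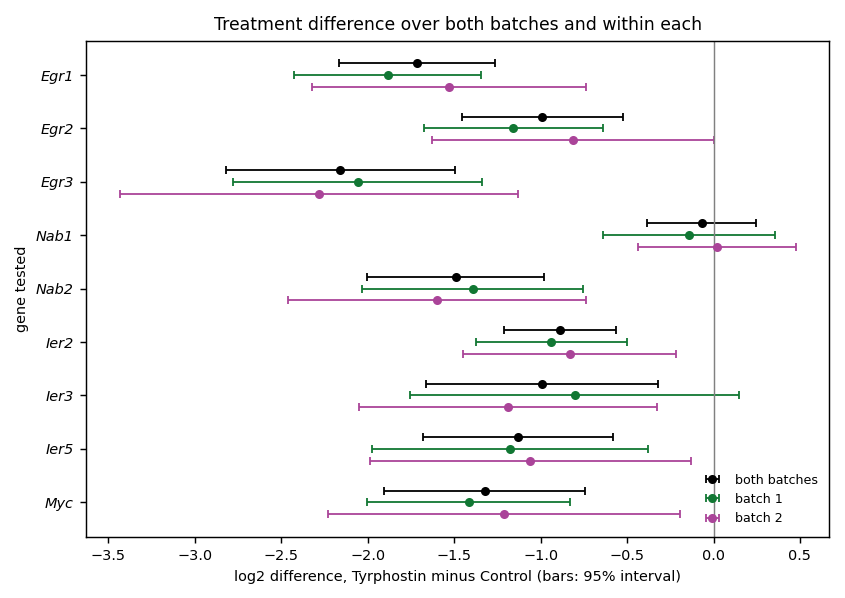
Fitted log2 difference between Tyrphostin and Control libraries (horizontal axis) for each of the 9 tested genes, over both batches (black), within batch 1 (green) and within batch 2 (purple). Points are estimates and bars 95% intervals; the intervals of the batches overlap for every gene, and those of Nab1 lie around 0.

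The treatment difference itself was compared between batches by an interaction term. It was called for 0 of the 9 members and for 0% of all genes (342 genes had an unadjusted p under 0.05), and every adjusted p of the members was 1. The change in difference ran from -0.39 ± 0.63 in Ier3 to 0.36 ± 0.41 in Egr1, batch 2 minus batch 1. These intervals are wide: for Egr1 the 95% interval was -0.48 to 1.20.

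Some members differed between batches among the Control libraries alone. Egr1 was lower in batch 2 than in batch 1 by a difference of -1.40 ± 0.22 (adjusted p = 0.000925), a size close to that of the treatment, and Ier3 by -1.67 ± 0.40 (adjusted p = 0.0154, edgeR). In this comparison 5.5% of all genes were called lower in batch 2 and 5.5% higher. The other 7 tested members were not called, but for Ier2, Myc and Egr2 this depended on the test, single libraries or scaling. Ier2 differed by -0.47 ± 0.20 (adjusted p = 0.14, edgeR), and by -0.49 ± 0.18 (adjusted p = 0.0474) with DESeq2. Myc differed by -0.37 ± 0.33 (adjusted p = 0.542), and by -0.92 ± 0.21 (adjusted p = 0.00991) without Control 7. With sample weights in limma-voom it stood at -0.82 ± 0.23 (adjusted p = 0.0239). Egr2 stood the other way, 0.60 ± 0.23 higher with an adjusted p of 0.106 (0.0282 without Control 9 and 0.0318 with total counts), and its median level was 50.1 CPM in batch 1 and 77.2 CPM in batch 2. Control sets lie within batches, and the difference of Ier3 was uneven across them. Set 1 of batch 1 averaged 1095 CPM. Set 2 of batch 1, at 324 to 445 CPM, overlapped set 4 of batch 2, at 270 to 417 CPM. The summed level of theca and stroma markers had a median of 448 CPM (251.4 to 719.6) in Control libraries of batch 1. In those of batch 2 the median was 1188 CPM (412 to 2152), and the ranges overlapped. Neither this sum nor its part in the members' batch differences was tested.

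The lists of other cell types were read beside the members. The 8 tested granulosa markers included 3 that were higher in Tyrphostin libraries: Cyp19a1, the aromatase gene, at 2.35 ± 0.22 (adjusted p = 2.84e-07), Nr5a2, a nuclear receptor gene, at 2.18 ± 0.16 (adjusted p = 8.38e-09), and Fshr, the receptor for follicle-stimulating hormone, at 0.83 ± 0.25 (adjusted p = 0.0344, edgeR). The most abundant of them, Inha, a subunit of inhibin, was at -0.05 ± 0.15. Summed granulosa markers reached 85665 to 107532 CPM in Control and 78279 to 114828 CPM in Tyrphostin libraries, so these ranges overlapped. As a share of all counts, however, the markers made up 8.02% to 9.34% in Control and 9.46% to 11.8% in Tyrphostin libraries of batch 1, with no overlap. In batch 2 the shares were 7.96% to 10.2% and 9.44% to 11.2%, and overlapped. Of the 8 tested oocyte markers, 7 theca and stroma markers, 2 endothelial and 2 immune markers, 0 were called. Red blood cell markers were not tested, and 3 of these 5, Hbb-bs, Hbb-bt and Hba-a2, were at 0 in every library. The immune sum was highest in Tyrphostin 5, at 877 CPM, and at 20.02 to 472.2 CPM in the Control libraries. The part of cell type shares in the members' differences was not tested.

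Levels per kilobase of exon put the members in order. In Control libraries Ier3 averaged 449 ± 352 CPM per kilobase (SD, n = 11), Egr1 307 ± 154 and Ier2 218 ± 47.1, each within the spread of its neighbour when both batches are pooled. The order of Egr1 and Ier2 depended on the batch: Egr1 averaged 429 ± 84.8 and Ier2 250 ± 12.4 CPM per kilobase in batch 1 (SD, n = 6), and 161 ± 36.8 and 179 ± 43.2 in batch 2 (SD, n = 5), where they overlapped. Myc followed at 43.3 ± 20.8, then Egr2 at 17.5 ± 6.35. Nab1 (9.31 ± 2.45) and Nab2 (7.42 ± 2.31) lay within each other's spread, as did Nab2 and Egr3 (6.59 ± 2.44), while Nab1 and Egr3 differed by more than either SD. Ier5 (1.52 ± 0.564) and Srf (0.538 ± 0.309) came last. In Tyrphostin libraries Ier3 stood at 231 ± 181 CPM per kilobase (SD, n = 6), Ier2 at 115 ± 21.8 and Egr1 at 85.7 ± 37.1. Nab2, at 2.62 ± 1.23, was there below Nab1, at 8.73 ± 1.11, by more than the spread of either gene. The levels of Nab2 per kilobase carry the uncertainty given above. Genes of the opposite strand share 42.2% of its exonic bases, and share no exonic bases of Nab1.

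How the members varied from library to library, apart from treatment and batch, was described by correlating their log2 CPM after the mean of each of the 4 treatment-by-batch groups had been subtracted. These 17 points share their libraries, and therefore depth and scaling, and the coefficients are descriptions without a test. Of the 36 pairs of tested members 27 were positive, with a median Pearson's r of 0.306. The closest pairs all involved Egr2 or Nab2: Egr2 with Ier5 (r = 0.717, Spearman's rho = 0.532), Egr2 with Ier3 (r = 0.675, rho = 0.667), Egr1 with Egr2 (r = 0.622, rho = 0.593) and Nab2 with Ier5 (r = 0.604, rho = 0.593). At the other end lay Ier2 with Myc (r = -0.555, rho = -0.316). Egr1 and Egr3 varied with little relation to each other (r = 0.240, rho = 0.167). All 9 members were positively correlated with the logarithm of the library total, from 0.111 in Myc to 0.564 in Nab1. Each gene of the closest pairs (Egr1, Egr2, Nab2, Ier3 and Ier5) was lowest in Tyrphostin 6 among the Tyrphostin libraries of batch 2. The coefficients were not computed without that library, and differences between Control sets were not subtracted.

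**Figure D3:**
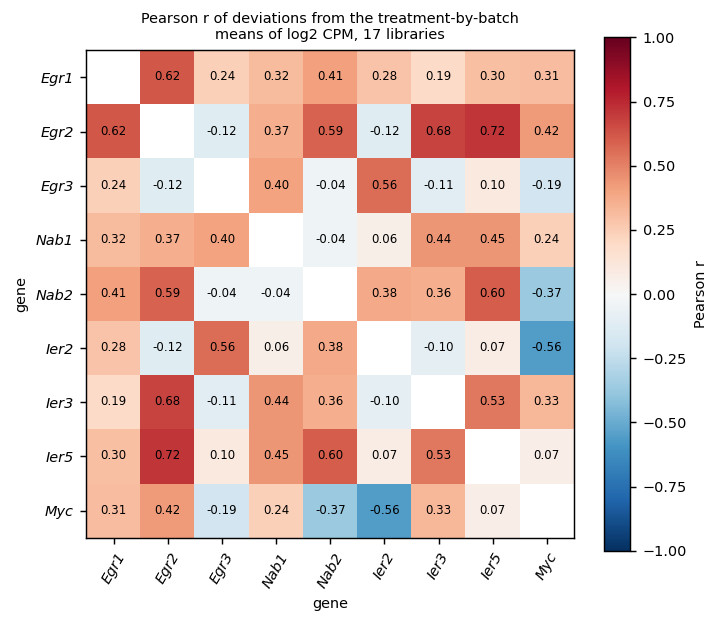
Pearson's r between the 9 tested genes (both axes) over 17 libraries, computed on log2 CPM after subtracting the mean of each treatment-by-batch group; colour and printed number give r. Egr2 with Ier5 is the highest pair (0.717) and Ier2 with Myc the lowest (-0.555).

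By the same measure the 5 genes most like Egr1 among 6309 candidates were Fkbp15 (r = 0.866, rho = 0.797), Irf2bpl (r = 0.831, rho = 0.735), Junb (r = 0.828, rho = 0.782), Soga1 (r = 0.823, rho = 0.652) and Cpeb4 (r = 0.822, rho = 0.743). Junb, an AP-1 subunit and itself an immediate early gene, also fell in the Tyrphostin libraries, by 1.48 ± 0.22 on the log2 scale (adjusted p = 9.03e-05, edgeR), and the other 4 were not called. Those most like Myc were Wdr1 (r = 0.909, rho = 0.799), Tinf2 (r = 0.891, rho = 0.787), Fermt2 (r = 0.891, rho = 0.792), Mpc1 (r = 0.889, rho = 0.676) and Ppp1r15a (r = 0.886, rho = 0.799). Of these, Tinf2, at -0.66 ± 0.15 (adjusted p = 0.00537), and Fermt2, at -0.55 ± 0.17 (adjusted p = 0.0416), were lower in Tyrphostin libraries. Myc itself stood at 238 CPM in Control 7, against 52.1 to 88.7 CPM in the other Control libraries of batch 2. Control 7 therefore weighs heavily on the coefficients with Myc, and they were not computed without it.

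Other immediate early genes did not move as one. Of a list of 33, 29 were tested, and their median difference was -0.28. Of those tested, 8 fell (27.6%) and 2 rose (6.9%), beside 6.25% called lower and 4.35% called higher among all genes. The same shares of all genes stand beside the counts of the other lists. Fosl1, another AP-1 subunit, fell by 2.38 ± 0.29 on the log2 scale (adjusted p = 8.36e-06), the neuronal activity gene Arc by 1.78 ± 0.23 (adjusted p = 1.74e-05) and Trib1, a pseudokinase gene, by 1.65 ± 0.21 (adjusted p = 1.17e-05). Jun rose. It averaged 235 ± 50.3 CPM (SD) over the 11 Control libraries and 527 ± 139 CPM over the 6 treated ones, with a difference of 1.15 ± 0.17 (adjusted p = 7.25e-05, edgeR). Nr4a1, an orphan nuclear receptor gene, was the other that rose, by 0.84 ± 0.22 (adjusted p = 0.0159), and is named here because it completes the count. Dusp1, an early gene for a phosphatase, stood at 0.06 ± 0.18 (adjusted p = 0.889).

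Output genes of the ERK pathway, a list of 12 with 10 tested, had a median difference of -1.09, close to that of the members. With TMM scaling all 10 values were negative, and 3 were called: Errfi1, an inhibitor of EGFR, at -2.59 ± 0.31 (adjusted p = 7.31e-06), Dusp6, an ERK phosphatase gene, at -2.05 ± 0.22 (adjusted p = 1.88e-06), and Phlda1 at -1.22 ± 0.30 (adjusted p = 0.0105, edgeR). Etv5, an ETS factor gene, was at -0.06 ± 0.18 (adjusted p = 0.876), closer to 0 than the 0.145 by which scaling to totals moved the median of all genes.

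Of the cytoskeletal genes known as SRF targets, a list of 12 with 11 tested, 3 fell: the actinin gene Actn1 (-0.96 ± 0.27, adjusted p = 0.0223), the tropomyosin gene Tpm1 (-0.70 ± 0.21, adjusted p = 0.0318) and Zyx, which encodes zyxin (-0.59 ± 0.18, adjusted p = 0.0379, edgeR). The list's median was -0.10, and Acta2, smooth muscle actin, was at 0.14 ± 0.57 (adjusted p = 0.922).

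Among 12 genes of MYC's partner and rival proteins, 11 were tested, 1 rose and 0 fell, with a median of 0.04. The gene that rose was Mycn, the paralogue of Myc. Its mean was 28.5 ± 15.3 CPM (SD) over the 11 Control libraries and 49.9 ± 15.2 CPM over the 6 treated ones, a difference of 0.97 ± 0.30 (adjusted p = 0.0402). Max, the obligate partner of MYC, stood at 0.62 ± 0.31 with an adjusted p of 0.241 (edgeR). Of 20 growth genes known as MYC targets, all tested, 4 fell: Rrp9 (-0.72 ± 0.18, adjusted p = 0.0122), Mybbp1a (-0.69 ± 0.18, adjusted p = 0.012), Nop56 (-0.62 ± 0.18, adjusted p = 0.0318) and Nolc1 (-0.48 ± 0.15, adjusted p = 0.0473), which all act in the nucleolus. The median was -0.36, and with TMM scaling 18 of the 20 values were negative. Srm, the spermidine synthase gene, was at 0.01 ± 0.23 (adjusted p = 0.984). The sizes in this list were smaller than that of Myc itself, which was -1.32.

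**Figure D4:**
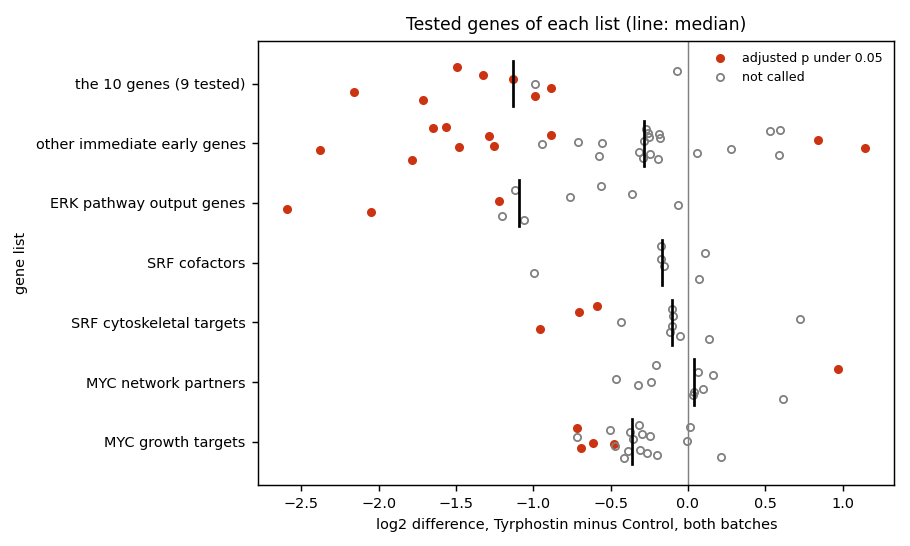
Fitted log2 difference between Tyrphostin and Control libraries over both batches (horizontal axis) for each tested gene of 7 lists (vertical axis); filled points were called at an adjusted p under 0.05, open points were not, and lines are list medians. The medians of the 10 genes (-1.13) and of the ERK pathway output genes (-1.09) are lower than those of the other lists, which range from -0.36 to 0.04.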

How the data were processed

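Whole-number counts per gene symbol were deposited by the authors in 1 table for 17 libraries made by Smart-Seq2, per the labels' protocols. This method copies whole transcripts and tags no molecules. STAR, HTSeq and the build GRCm38 are named without versions or settings in the submitters' processing notes; annotation and strandedness are not given in the sources used here. Columns were matched to samples by the names in the labels. Gene positions and exon lengths were those of GENCODE M21, with a model for 99.6% of the tested genes, and promoters those of RefSeq (GRCm38.p6).

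The test was edgeR's quasi-likelihood F test (version 4.0.16, R 4.3.3) after filterByExpr on treatment (minimum count 10), TMM and robust glmQLFit. P-values were adjusted by Benjamini-Hochberg over all genes tested, with a threshold of 0.05. Batch was a term in the fit over all libraries. Further fits covered each batch, the interaction, and batch among Control libraries. The SE is the log2 difference divided by the square root of F. CPM used TMM-scaled totals, and a prior count of 2 for log2 values. The 95% intervals were computed from this SE and the t distribution with the degrees of freedom of the edgeR test. They include the spread between libraries. The level given for 3 counts covers counting error only. None of the 31 pairs of libraries within a group and batch agreed within sampling noise (their chi-square values, divided by degrees of freedom, were 13.6 to 97.2).

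The members and lists were chosen with earlier results of these data known. All members are named. From each list up to 4 tested genes of lowest p and 2 of highest p could be named, with the 5 genes most like Egr1 and the 5 most like Myc among those with an average log2 CPM of at least 3. Alternatives included scaling by RLE, upper quartile or total count, other filters, DESeq2 1.42.0, limma-voom (limma 3.58.1), other covariates, replicate blocks and leaving out each library. Fits within each batch taken from 1 model over all libraries, and the omission of Control 7 and Control 8 together, were added after seeing the data. On simulated counts for 9603 genes in the design over both batches, 61.4% of genes changed by 1 on the log2 scale and 99.1% of those changed by 2 were recovered, and 5 of 166 calls were false. The simulated counts were drawn independently for each library, without differences between Control sets. These rates may therefore not hold for the real libraries.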

Additional observations from a re-analysis of the deposited data

Results flagged for a closer look

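In 27 groups of 5 or 6 libraries searched (9 members, each in the Control libraries of batch 1, those of batch 2 and the Tyrphostin libraries), 2 held a library far from the others by Dixon's criterion, where chance gives about 1.35. Egr1 stood at 1011 CPM in Control 8, against 601 to 696 CPM in the other Control libraries of batch 2. The gap made up 0.769 of the group's range, and 0.719 on the log2 scale. Without Control 8 the difference of Egr1 over both batches was -1.65 with an adjusted p of 3.43e-05 (edgeR). Myc stood at 238 CPM in Control 7, against 52.1 to 88.7 CPM in the other 4. The gap made up 0.802 of the range, and 0.65 on the log2 scale, which is not beyond the critical value. Control 7 also had the lowest mitochondrial share of the 17 libraries, 0.175%. Without Control 7 and Control 8 together, Egr1 was at -1.66 (adjusted p = 1.86e-05) and Myc at -1.01 (adjusted p = 0.00302, edgeR).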

How the results depend on the processing

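For the comparison over both batches, the count of members called stayed between 6 and 8 in 17 alternative fits. It stayed between 7 and 8 in 17 fits that left out 1 library. Not all of the alternatives used every library. A replicate block over numbers 1 to 6 left out the Control libraries numbered above 6. Another, over numbers 1 to 3, held batch 1 alone, and 1 more fit left out Control 7 and Control 8. Egr1, Egr3, Nab2, Ier2 and Myc were called in all 34 of these fits. Ier5 was lost in the 2 replicate block fits, at adjusted p of 0.093 and 0.0647, and could not be tested with a minimum count of 30. Ier3 was called with DESeq2 (0.0159), without robust estimation (0.0492) and with the library total as a covariate (0.0161). It was also called in both replicate block fits (0.00465 and 0.00167), which used fewer Control libraries. The block within batch 1 kept only Control set 1, where Ier3 averaged 1095 CPM, against 381 CPM in set 2. The replicate block gave 7 members called. The label numbers were not taken to pair the samples: numbers 4 to 6 fall in different batches, and same-numbered libraries correlated between -0.13 and 0.47 by deviations from group means. With batch removed as well, all 6 correlations were positive, from 0.031 to 0.32, but 4 were under 0.1. The difference of Nab1 became 0.0811 with total counts. Within batch 1 the count was 6, and 5 to 7 with 1 library left out. Within batch 2 it was 0, but 4 with no filter on low counts, 3 with DESeq2, 3 with sample weights in limma-voom, 3 in 1 fit over all 17 libraries, and 0 to 4 with 1 library left out; the cause was not tested. There Egr1 (adjusted p = 0.00889), Egr3 (0.0123) and Nab2 (0.0205, edgeR) were called in the fit over all 17 libraries. Between batches among Control libraries the count was 2, and 2 to 3 with 1 library left out. In the other alternatives it ran from 1 to 3, with 1 at an adjusted p under 0.01. Genes below about 10 counts, such as Srf, are limited by depth.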
